A study of Mus musculus with 2 samples.

Results

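Noncoding transcripts at 7 gene loci tied to regulatory T cells were compared between the spleens of arthritic mice (collagen-induced arthritis, CIA) and of healthy mice. In this model, joint inflammation follows immunization with cartilage collagen. The members were chosen by name and class: all assembled transcripts lying inside introns (class code i) of Ikzf2, Il2ra, Entpd1 and Stat5b, and the annotated long noncoding RNA (lncRNA) transcripts of Flicr, Gm36995 and Gm16008. This gave 30 transcripts of 32012 in the deposited tables, 24 of them intronic (17 in Ikzf2, 2 in Il2ra, 3 in Entpd1, 2 in Stat5b) and 6 annotated (2 of Flicr, 1 of Gm36995, 3 of Gm16008).

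The CIA group was 1 library of spleen cells from arthritic mice and the healthy group 1 library from mice without treatment. The sample titles give day 40 for both, whereas the CIA treatment text places sacrifice on day 42 from first immunization. Strain, age, sex and the number of mice pooled per library were not given in the labels. With 1 library per group no difference has a replicate check, so values are set side by side with no test and every comparison is between 2 libraries.

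Regulatory T cells are CD4 T cells that restrain other immune cells and depend on the transcription factor Foxp3. They take up interleukin 2 through a high-affinity receptor whose alpha chain, CD25, is encoded by Il2ra, and the signal reaches the nucleus through STAT5 proteins, one of them encoded by Stat5b. Ikzf2 encodes Helios, an Ikaros-family factor of these cells, and Entpd1 encodes CD39, a surface enzyme that breaks down extracellular ATP. Flicr is a noncoding RNA transcribed across the start of Foxp3 and known in mice to tune Foxp3 expression, and Gm16008 runs antisense to Tnfrsf18, the gene of the receptor GITR. Stat5b is used by many cell types, and CD39 is also found on B cells, myeloid cells and endothelium. In bulk spleen RNA, fewer cells of a type and less RNA per cell cannot be told apart.

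The sequences shown are annotated start regions of Entpd1, Stat5b, Flicr and Gm16008, and the stretch of Gm16008 that lies over Tnfrsf18 coding sequence. The start regions come from RefSeq (GRCm38.p6) and run from 250 bases before to 50 bases after an annotated gene start. They were found for 5 of the 7 loci, all but Ikzf2 and Gm36995. Capitals mark matches, on either strand, to 3 motifs: TTCNNNGAA (STAT proteins), TGTTTAC (forkhead proteins) and TGTGGT (Runx proteins).
Entpd1 internal start, chr19:40659520-40659819, plus strand: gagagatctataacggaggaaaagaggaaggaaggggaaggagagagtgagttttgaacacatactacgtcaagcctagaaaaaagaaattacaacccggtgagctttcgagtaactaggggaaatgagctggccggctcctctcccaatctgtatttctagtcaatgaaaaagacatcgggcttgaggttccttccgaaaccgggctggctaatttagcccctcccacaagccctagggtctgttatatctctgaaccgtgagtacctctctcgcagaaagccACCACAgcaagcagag
Stat5b internal start, chr11:100822521-100822820, minus strand: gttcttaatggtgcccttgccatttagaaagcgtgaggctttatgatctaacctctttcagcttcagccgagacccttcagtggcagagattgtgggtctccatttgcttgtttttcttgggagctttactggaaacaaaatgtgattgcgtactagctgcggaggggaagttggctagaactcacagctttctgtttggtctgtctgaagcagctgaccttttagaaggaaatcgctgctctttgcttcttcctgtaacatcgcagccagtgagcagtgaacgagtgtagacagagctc
Flicr start, chrX:7573350-7573649, plus strand: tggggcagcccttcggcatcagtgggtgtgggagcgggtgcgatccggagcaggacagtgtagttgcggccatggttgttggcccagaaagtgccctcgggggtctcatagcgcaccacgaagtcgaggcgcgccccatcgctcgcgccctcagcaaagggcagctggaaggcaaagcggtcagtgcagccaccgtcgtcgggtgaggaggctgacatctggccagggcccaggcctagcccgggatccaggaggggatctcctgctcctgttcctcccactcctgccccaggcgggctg
Gm16008 upstream start, chr4:156031613-156031912, minus strand: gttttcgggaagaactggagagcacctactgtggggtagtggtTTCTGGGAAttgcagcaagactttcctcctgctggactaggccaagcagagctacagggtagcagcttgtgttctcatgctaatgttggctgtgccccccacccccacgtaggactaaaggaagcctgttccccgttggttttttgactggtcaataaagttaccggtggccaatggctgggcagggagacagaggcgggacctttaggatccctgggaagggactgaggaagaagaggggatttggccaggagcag

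Of 32851 RefSeq start regions of this length, 8.30% held the STAT motif, 3.65% the forkhead motif and 16.8% the Runx motif. Among the 4 regions shown, the upstream Gm16008 start held the STAT motif (TTCTGGGAA) and the Entpd1 internal start the Runx motif. None of the 3 motifs was found in the Stat5b internal start or the Flicr start. Of the start regions not shown, a second Gm16008 start held the Runx motif (TGTGGT), and those of Il2ra, the main Entpd1 start and the main Stat5b start held none. The neighbours Foxp3, at one of its 2 starts (TTCCAAGAA), and Tnfrsf18 (TTCACAGAA) held the STAT motif. These matches describe letters in a window and say nothing of binding.

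The transcript Gm16008-201 (ENSMUST00000126009) is the only Gm16008 transcript above 0.1 FPKM, and its last exon crosses the start of the Tnfrsf18 coding sequence. Its bases 521 to 720 of 810 are shown, with the 151 bases that are antisense to Tnfrsf18 coding sequence in capitals.
Gm16008-201, chr4:156026387-156026586, minus strand: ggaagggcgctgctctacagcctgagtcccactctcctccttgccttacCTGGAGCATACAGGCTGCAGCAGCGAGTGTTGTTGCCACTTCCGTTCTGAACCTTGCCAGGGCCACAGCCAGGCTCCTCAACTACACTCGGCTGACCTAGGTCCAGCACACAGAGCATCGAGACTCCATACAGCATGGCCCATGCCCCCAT

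Across the 24 intronic members, levels in the CIA library were slightly higher at most transcripts of Ikzf2 and Stat5b, close to equal or lower at Entpd1, and split at Il2ra. Levels are FPKM, fragment counts scaled for transcript length and library size, and ratios are log2 of CIA over healthy after adding 0.1 FPKM to each. All 24 intronic members reached 0.5 FPKM in at least 1 library. Of these, 17 had a ratio above 0 and 7 below 0, with a median log2 ratio of 0.27. Among all 12558 intronic assembled transcripts past the same filter, 63.7% had a ratio above 0. Transcripts of 1 host gene share their source and are not replicates of each other. None of the 24 members reached a level 2-fold higher in CIA, where 15.6% of all 12558 were. Lower by 2-fold or more were 2 members, where 10.3% of all were. The median of all intronic transcripts was 0.25, a ratio of 1.19, so 12 of the 24 members lay above it. Centring on the median of annotated transcripts, 0.30, took the members' median to -0.03.

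**Figure D1:**
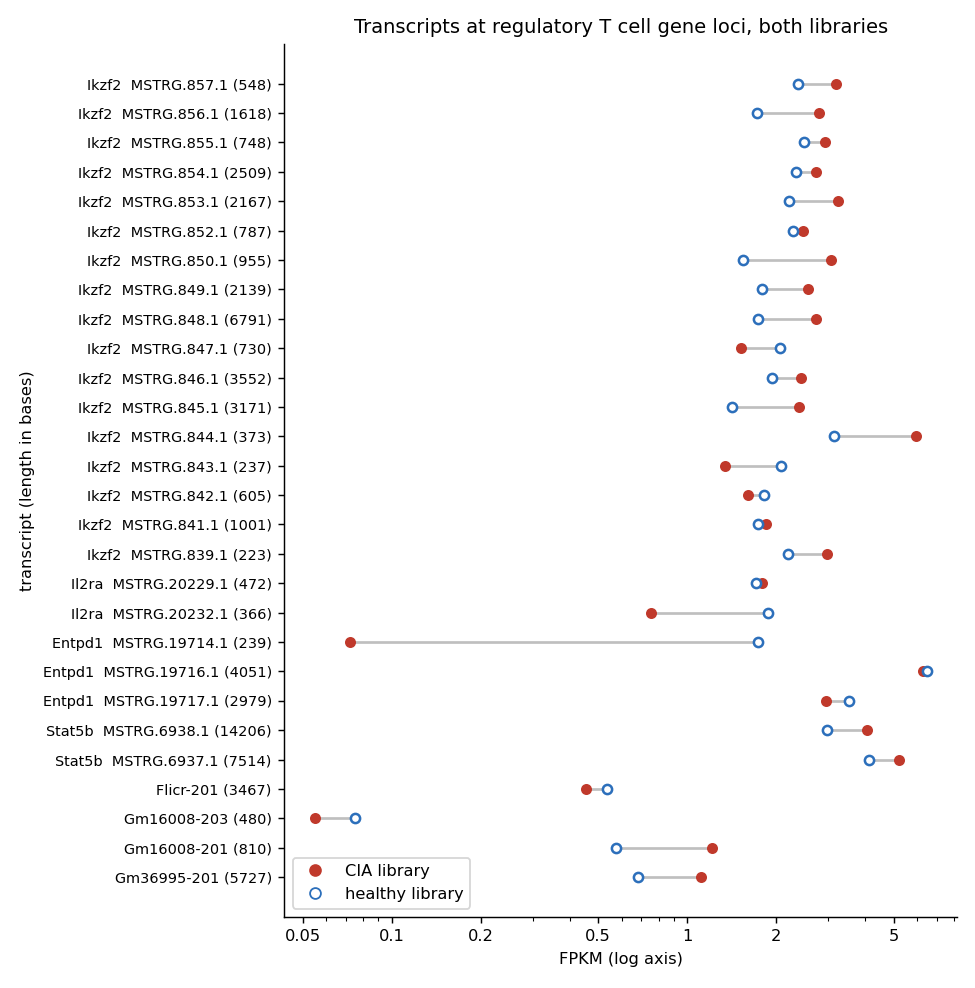
FPKM (log axis) of the 24 intronic and 4 annotated transcripts above the floor in the CIA library (filled) and the healthy library (open), with the transcript length in bases. Most points of a transcript lie within a factor of 2, and the Entpd1 transcript MSTRG.19714.1 has the widest gap, 0.0723 against 1.74 FPKM.

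Ikzf2 (chromosome 1, 69531214 to 69687245, minus strand, 156.0 kb) carried the most members. Its 17 transcripts had 1 exon and no assigned strand, were 223 to 6791 bases long and together covered 18.0% of the gene. Both traits were common, as 92.8% of all 12603 intronic assembled transcripts had 1 exon and 75.04% had no assigned strand. Whether the 17 are separate transcripts or pieces of unspliced Ikzf2 RNA was not tested. Of 4339 host genes with an intronic assembled transcript past the filter, 74 had 17 or more. In the healthy library the 17 stood between 1.42 and 3.13 FPKM with a median of 2.05, and in the CIA library between 1.34 and 5.93 FPKM with a median of 2.73. The ranges of the libraries overlap, while 14 of the 17 transcripts were higher in the CIA library, as were 63.7% of all intronic transcripts. The log2 ratios of the 17 ran from -0.59 to 0.95, with a median of 0.41. Weighted by length, the mean over the locus was 2.65 against 1.89 FPKM, for a log2 ratio of 0.46. This value lay at percentile 68.2 of all hosts, and at percentile 63.4 of the 213 hosts with at least 10 intronic transcripts, whose median was 0.35.

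The longest Ikzf2 transcript, MSTRG.848.1 of 6791 bases, stood at 2.73 FPKM in CIA and 1.74 FPKM in healthy spleen. MSTRG.846.1 of 3552 bases stood at 2.43 against 1.94 FPKM, and MSTRG.845.1 of 3171 bases at 2.38 against 1.42 FPKM. These long transcripts were all higher in the CIA library, with log2 ratios of 0.62, 0.31 and 0.71. The highest ratio was that of MSTRG.850.1 (955 bases), at 3.07 against 1.54 FPKM, for a log2 ratio of 0.95. The most abundant, MSTRG.844.1 (373 bases), stood at 5.93 against 3.13 FPKM, and no other Ikzf2 member passed 3.24 FPKM in either library. The 3 transcripts lower in the CIA library were MSTRG.843.1 at 1.34 against 2.07 FPKM, MSTRG.847.1 at 1.52 against 2.05 FPKM and MSTRG.842.1 at 1.60 against 1.82 FPKM. These 3 were 237, 730 and 605 bases long, shorter than the locus median of 955 bases.

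Nearest to the 5′ end of Ikzf2 lay MSTRG.857.1, 548 bases long and 1931 bases from an exon, at 3.18 FPKM in CIA and 2.37 FPKM in healthy spleen. Next to it lay MSTRG.856.1 (1618 bases) at 2.78 against 1.72 FPKM. Of the following transcripts, MSTRG.853.1 (2167 bases) stood at 3.24 against 2.20 FPKM and MSTRG.849.1 (2139 bases) at 2.57 against 1.79 FPKM. All of these were higher in CIA, with log2 ratios of 0.41, 0.66, 0.54 and 0.50. Smaller differences were seen at MSTRG.855.1 (2.93 against 2.49 FPKM), MSTRG.854.1 (2.74 against 2.33 FPKM) and MSTRG.852.1 (2.47 against 2.28 FPKM), whose log2 ratios of 0.23, 0.22 and 0.11 lay below the median of all intronic transcripts.

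By position, 16 of the 17 lay in intron 3 of the transcript ENSMUST00000027146, an intron of 105.2 kb of which they covered 26.6%, and MSTRG.839.1 lay in intron 5. Between 7.62 and 65.3 kb from the 5′ end of the gene, before its midpoint, 13 transcripts began, and 12 of them were higher in the CIA library. Their length-weighted mean was 2.71 against 1.90 FPKM, for a log2 ratio of 0.49. Beyond the midpoint lay 4 transcripts, of which MSTRG.839.1 (2.98 against 2.19 FPKM) and MSTRG.841.1 (1.84 against 1.73 FPKM) were higher, with a mean of 1.84 against 1.85 FPKM and a log2 ratio of -0.01. The log2 ratios of the sides differed by 0.50. The transcripts beyond the midpoint were also shorter, 223 to 1001 bases against 373 to 6791. Among members of at least 600 bases, a limit chosen after seeing the data, the log2 ratios of the sides differed by 0.49. The part of length in the difference was not tested. Across the 17 transcripts of these libraries, the log2 ratio and the distance from the 5′ end had a Pearson r of -0.29 and a Spearman rho of -0.23. Split at the median position of the members in place of the midpoint, the difference between the sides was 0.14.

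A pair of annotated sense-intronic lncRNAs lies among these transcripts. Gm28112, 1875 bases long and before the midpoint of Ikzf2, stood at 2.37 FPKM in CIA and 1.51 FPKM in healthy spleen, close to the levels of its assembled neighbours. Gm29112, 3487 bases long and beyond the midpoint, stood at 0.898 against 0.657 FPKM, for a log2 ratio of 0.40. With both added, the mean before the midpoint was 2.69 against 1.87 FPKM and beyond it 1.25 against 1.10 FPKM, so the sides then differed in level in both libraries. The log2 ratios were 0.50 and 0.17, a difference of 0.33.

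**Figure D2:**
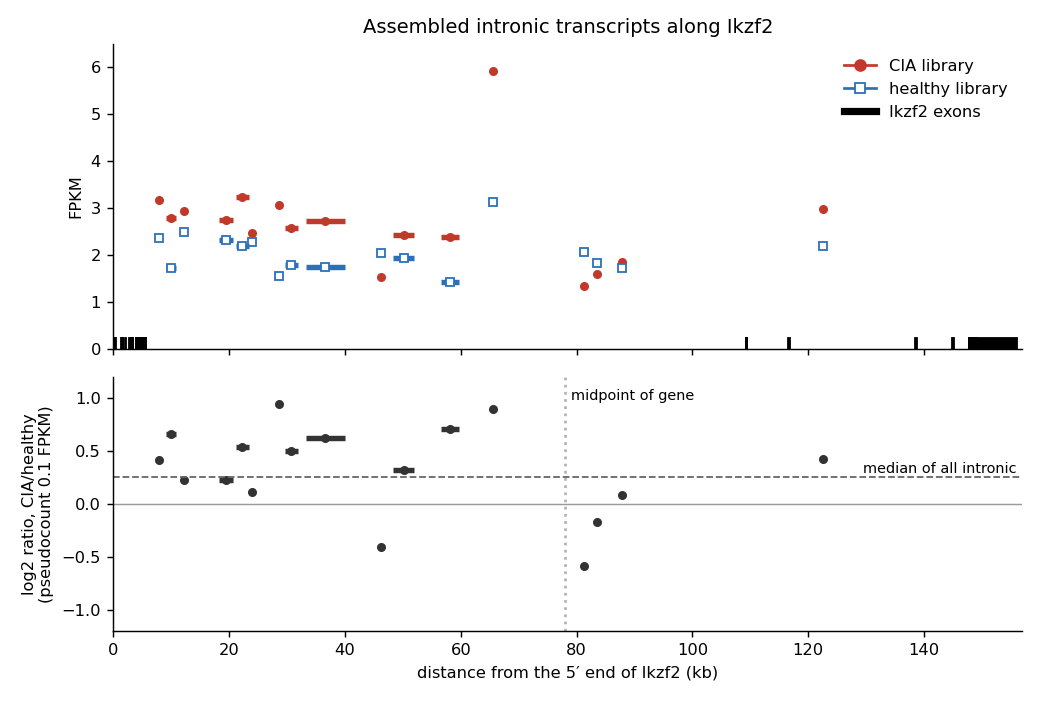
Upper panel, FPKM of the 17 Ikzf2 transcripts in each library against distance from the 5′ end of the gene (kb), with bars as long as the transcripts and exons as black blocks; lower panel, their log2 ratios with the median of all intronic transcripts (dashed). Of the 13 transcripts before the midpoint 12 lie above 0, and of the 4 beyond it 2 do.

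Stat5b (chromosome 11, 100780731 to 100850724, minus strand) held the longest members. MSTRG.6938.1, 14206 bases without assigned strand, began 0.810 kb from the 5′ end of the gene and stood at 4.05 FPKM in CIA and 2.97 FPKM in healthy spleen. MSTRG.6937.1, 7514 bases, stood at 5.19 against 4.13 FPKM. Both lie in intron 1 of the transcript ENSMUST00000004143 and were higher in the CIA library, with log2 ratios of 0.44 and 0.32. MSTRG.6937.1 was assembled on the plus strand, opposite to Stat5b. Its end, not its beginning, lies 3.20 kb downstream of the internal Stat5b start shown above. The main Stat5b start, not shown, lies 0.667 kb from the near edge of MSTRG.6938.1. The length-weighted mean of the locus was 4.45 against 3.37 FPKM, for a log2 ratio of 0.39 at percentile 63.1 of all hosts. Intronic transcripts of at least 5000 bases had a median of 0.38.

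Entpd1 (chromosome 19, 40612366 to 40741602, plus strand) was the locus where all members were lower in the CIA library. MSTRG.19716.1, the most abundant intronic member in both libraries, is 4051 bases long on the strand of the gene and begins 1.73 kb downstream of the internal start shown above. It stood at 6.28 FPKM in CIA and 6.46 FPKM in healthy spleen, a log2 ratio of -0.04. MSTRG.19717.1, the only spliced intronic member with 2 exons, stood at 2.94 against 3.52 FPKM, for a log2 ratio of -0.25. These long transcripts differed by 1.19-fold at most on the pseudocount scale. MSTRG.19714.1, only 239 bases long and 21.9 kb from the nearest Entpd1 exon, stood at 0.0723 against 1.74 FPKM, for a log2 ratio of -3.42. It passed the filter of 0.5 FPKM only through the healthy library, which favours a ratio below 0. It is one of the 2 members past 2-fold and weighs little in the length-weighted mean of the locus. That mean was 4.71 against 5.10 FPKM, for a log2 ratio of -0.11 at percentile 28.6 of all hosts. The unweighted mean of the 3 log2 ratios was -1.24.

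Il2ra (chromosome 2, 11642807 to 11693193, plus strand) held the other member past 2-fold. MSTRG.20232.1, 366 bases in intron 6 and 123 bases from an Il2ra exon, stood at 0.755 FPKM in CIA and 1.87 FPKM in healthy spleen, a log2 ratio of -1.21. MSTRG.20229.1, 472 bases in intron 1, stood at 1.79 against 1.71 FPKM, for a log2 ratio of 0.06. The transcripts thus differed in direction, and the length-weighted mean of 1.34 against 1.78 FPKM, for a log2 ratio of -0.39, rests on MSTRG.20232.1. It lay at percentile 18.4 of all hosts, the lowest of the 4 loci. The annotated Gm37881, which lies next to it in Il2ra, was near the floor at 0.0660 against 0.176 FPKM.

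Both members past 2-fold were under 400 bases, a length at which ratios of intronic transcripts spread widely. Among 3550 intronic transcripts of at least 200 and under 400 bases, 22.1% were higher and 25.2% lower by 2-fold or more, and the log2 ratios ran from -2.89 at the 5th to 2.64 at the 95th percentile. The ratio of MSTRG.20232.1 lay inside this span and that of MSTRG.19714.1 below it. Among 7260 intronic transcripts of at least 600 bases, 2.34% were lower by 2-fold or more. Of the 17 members of that length, 13 were above 0 and none was 2-fold apart, with log2 ratios from -0.41 to 0.95. Their median of 0.31 stood beside 0.32 for all intronic transcripts of that length, whose 25th percentile was -0.03.

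**Figure D3:**
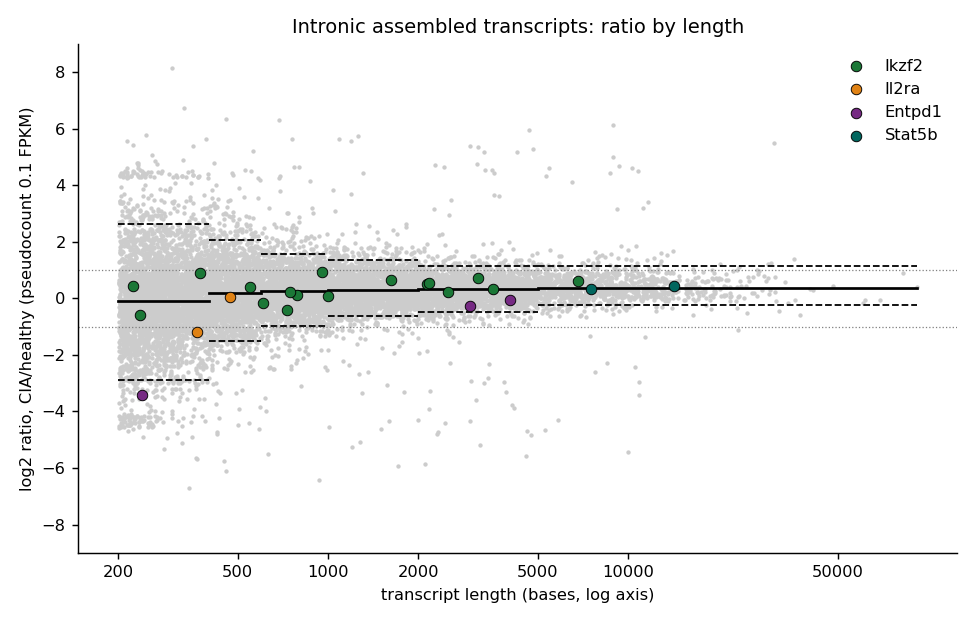
Log2 ratio of CIA over healthy FPKM (pseudocount 0.1) against transcript length (log axis) for all 12558 intronic transcripts (grey) and the members (coloured by host gene). Solid lines give the median and dashed lines the 5th and 95th percentiles per length class, and dotted lines mark 2-fold; the members past 2-fold are 239 and 366 bases long.

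At Foxp3 (chromosome X, 7573644 to 7595245, plus strand) the annotated members were low in both libraries. Flicr-201 (ENSMUST00000144719, 3467 bases) stood at 0.455 FPKM in CIA and 0.536 FPKM in healthy spleen, and Flicr-202 was listed at 0 in both. Flicr, at a log2 ratio of -0.20, was lower in the CIA library, by less than 1.5-fold. It lay at percentile 19.8 of 2765 annotated genes past the filter, whose median was 0.30. With 0.455 FPKM in CIA, Flicr passed the filter of 0.5 FPKM only through the healthy library, which favours a ratio below 0. Of its exon bases 853 also belong to annotated Foxp3 exons on the same strand, and 310 to Ppp1r3f exons on the other strand. Gm36995 (ENSMUST00000126170, 17 exons, minus strand) stood at 1.11 against 0.682 FPKM, for a log2 ratio of 0.64 at percentile 71.7. Of its 5727 exon bases, 93.8% lie in exons of protein-coding genes. Ccdc22 shares 2957 and Ppp1r3f 2415 of them on the same strand, and Foxp3 shares 373 on the opposite strand. Its value therefore cannot be told apart from reads of those genes, and the strandedness of the libraries was not stated in the labels.

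The assembled transcripts inside Foxp3 introns carry the name Gm36995 in the table and are no members. MSTRG.39924.1, 722 bases and 1077 bases from the nearest Foxp3 exon, stood at 1.82 FPKM in CIA and 0.684 FPKM in healthy spleen, a log2 ratio of 1.29. MSTRG.39925.1, 350 bases and 743 bases from a Foxp3 exon, stood at 0.427 against 1.78 FPKM, for a log2 ratio of -1.83. Both passed 2-fold, in opposite directions, and neither has an assigned strand. The longer MSTRG.39922.1, within Ppp1r3f, stood at 2.59 against 1.86 FPKM. Adding these 3 to Gm36995 gave 5.96 against 5.00 FPKM, for a log2 ratio of 0.25.

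**Figure D4:**
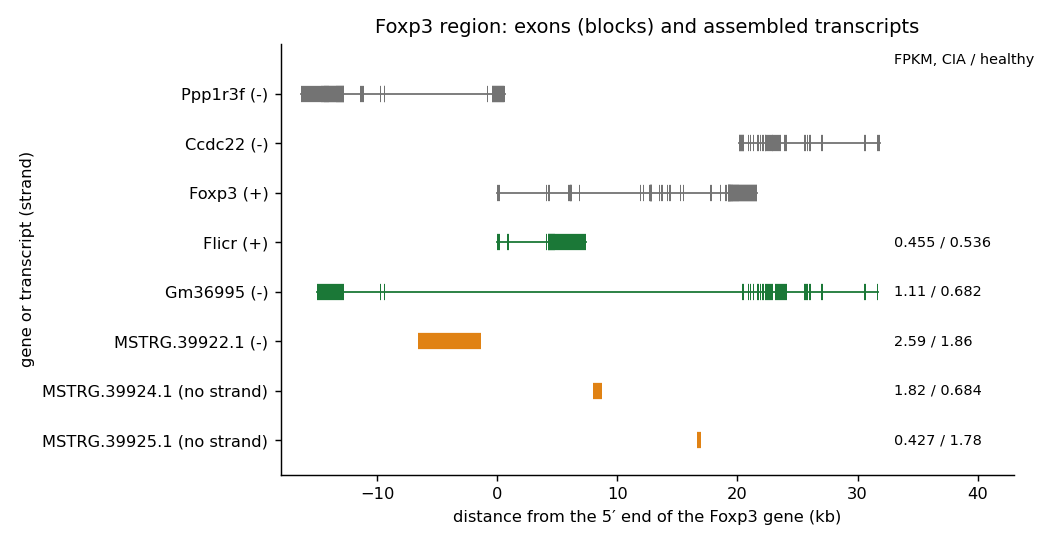
Map of the Foxp3 region by distance from the 5′ end of Foxp3 (kb), with exons as blocks, protein-coding genes in grey, annotated members in green and assembled transcripts in orange, and FPKM in the CIA and healthy libraries at the right. Most exon blocks of Gm36995 stand under those of Ppp1r3f and Ccdc22, and MSTRG.39924.1 (1.82 against 0.684 FPKM) and MSTRG.39925.1 (0.427 against 1.78 FPKM) lie inside Foxp3.

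At Tnfrsf18 (chromosome 4, 156026164 to 156028895, plus strand), Gm16008-201 stood at 1.21 FPKM in CIA and 0.576 FPKM in healthy spleen. Gm16008-203 stood at 0.0551 against 0.0749 FPKM and Gm16008-202 was listed at 0 in both. Summed, the gene stood at 1.26 against 0.651 FPKM, for a log2 ratio of 0.86 at percentile 81.6 of annotated genes and the highest of the 3 annotated genes. Of the 810 exon bases of Gm16008-201, 414 lie over Tnfrsf18 exons on the opposite strand, so reads of the GITR mRNA could be counted for it. With the pseudocount none of the 3 genes or their 6 transcripts was 2-fold apart. Of all annotated genes past the filter 14% were higher and 4.2% lower by that much, and of all annotated transcripts 15.7% and 6.13%. Without a pseudocount the ratio of Gm16008-201 was 2.10 in the authors' deposited table, just past 2-fold.

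In the authors' deposited table none of the 30 members was marked significant. For 21 of them the authors' deposited table gave a p below 1, between 0.212 for MSTRG.850.1 and 0.988 for MSTRG.852.1. The authors' deposited table listed the remaining 9 at p = 1, among them 5 intronic members of 472 bases or fewer, including the 2 past 2-fold.

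Other genes of the pathway were described through their own intronic assembled transcripts. Of all 12558 such transcripts past the filter, 15.6% were higher and 10.3% lower by 2-fold or more in CIA. A list of 20 further regulatory T cell genes included Foxp3, Ctla4, Nrp1 and Ikzf4. Only Izumo1r, the gene of folate receptor 4, and Prdm1, the gene of Blimp-1, had intronic transcripts past the filter under their own names. The transcripts inside Foxp3 introns described above are named Gm36995 and are not counted here. Of the 3 transcripts of Izumo1r and Prdm1, MSTRG.37674.1 of Izumo1r was 2-fold higher in CIA, at 2.35 against 0.822 FPKM. None of the 3 was 2-fold lower. The other Izumo1r transcript, MSTRG.37673.1, stood at 1.92 against 2.06 FPKM and MSTRG.3507.1 of Prdm1 at 2.56 against 1.84 FPKM. The median log2 ratio of the 3 was 0.46. At 389 bases, MSTRG.37674.1 belongs to the length class in which 22.1% of all intronic transcripts were higher by 2-fold or more. Of 34 transcripts in 6 hosts of the interleukin 2 receptor and STAT5 pathway, 1 was higher and 3 were lower by 2-fold or more, and the median was -0.07. Of these 34 transcripts 22 came from Gab2, the gene of an adaptor protein. Jak1, the gene of a kinase bound to the receptor, had a length-weighted mean of 17.3 against 11.2 FPKM, and Bcl2, a survival gene, 14.5 against 8.20 FPKM, with log2 ratios of 0.62 and 0.82. Those were the highest of the 6 hosts. Ptpn2 stood at 0.32, Sos1 at 0.01, Gab2 at -0.07 and Il15ra at -0.67 on the same scale. The lowest transcripts of the list were MSTRG.34425.1 (0.242 against 1.69 FPKM) and MSTRG.34423.1 (0.995 against 2.42 FPKM), both of Gab2. The highest were MSTRG.34427.1 of Gab2 (2.10 against 0.211 FPKM) and MSTRG.1386.1 of Bcl2 (17.8 against 9.53 FPKM).

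Among relatives of Helios and STAT5b, 3 hosts had such transcripts. Stat3 had a length-weighted mean of 4.68 against 3.40 FPKM, Stat4 of 6.21 against 4.10 FPKM and Ikzf3, the gene of Aiolos, of 5.11 against 2.11 FPKM. The log2 ratio of Ikzf3 was 1.24, above that of Ikzf2 at 0.46, and that of Stat3, 0.45, was near that of Stat5b at 0.39. In the Ikzf3 locus MSTRG.6883.2 stood at 7.33 against 0.104 FPKM beside its overlapping isoform MSTRG.6883.1 at 5.68 against 2.71 FPKM. The third Ikzf3 transcript, MSTRG.6884.1, was lower in CIA, at 2.06 against 2.64 FPKM. Without MSTRG.6883.2, an alternative chosen after seeing the data, the Ikzf3 log2 ratio was 0.71. MSTRG.543.1 of Stat4, the next lowest of these relatives, stood at 5.39 against 4.35 FPKM. Of 9 transcripts in 5 hosts of the extracellular ATP and adenosine pathway, 1 was 2-fold higher and none 2-fold lower. Of all intronic transcripts past the filter, 15.6% were higher and 10.3% lower by that much. The median of the 9 was 0.21. Adora2a, the gene of an adenosine receptor, had one transcript at 3.53 against 2.53 FPKM. Ada and Adk, the genes of enzymes that remove adenosine, had 1 transcript each, with log2 ratios of 0.70 and -0.68. P2rx7, the gene of an ATP-gated channel, held both the highest transcript, MSTRG.29798.1 at 1.90 against 0.695 FPKM, and one of the lowest, MSTRG.29799.1 at 1.89 against 3.09 FPKM. None of the other members of the Entpd family listed, Entpd3 to Entpd7, had an intronic transcript past the filter.

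Host genes that mark other spleen cells moved by different amounts between the libraries. Beside the 2-fold counts below stand 15.6% higher and 10.3% lower among all 12558 intronic transcripts past the filter. All 9 T cell hosts had a higher log2 ratio than Ikzf2, from 0.60 for Camk4 to 1.58 for Lef1, and 53 of their 87 transcripts were 2-fold higher and 2 lower, with a summed level of 256.1 against 125.2 FPKM. The 6 B cell hosts ran from 0.46 for Ebf1 to 1.07 for Fcer2a and summed to 342.2 against 215.5 FPKM. Of their 28 transcripts 7 were 2-fold higher and 2 lower. Both lower ones were listed at 0 in CIA, MSTRG.5425.2 of Ebf1 against 4.24 FPKM and MSTRG.25962.1 of Pax5 against 2.45 FPKM. In the other direction, MSTRG.5423.1 of Ebf1 stood at 4.46 against 0 FPKM. The 4 erythroid and megakaryocyte hosts were all below 0, from -0.54 for Gata1 to -0.16 for Epb41, with none of 15 transcripts 2-fold apart, and summed to 109.5 against 129.6 FPKM. Of 12 endothelial and stromal genes only Pecam1 had intronic transcripts, 4 of 7 of them 2-fold higher, summing to 64.3 against 32.8 FPKM. In Pecam1, MSTRG.7151.2 stood at 2.18 against 0 FPKM beside the isoform MSTRG.7151.1 at 5.86 against 4.85 FPKM. Of 13 myeloid genes only Fcgr3 had an intronic transcript, listed at 0 in the CIA and at 1.94 FPKM in the healthy library. At 388 bases, it belongs to the length class in which 25.2% of all intronic transcripts were lower by 2-fold or more. It passed the filter only through the healthy library. No intronic transcript past the filter was named after Cd3e, Cd4, Cd8a, Ms4a1 or Foxp3. The part of these shifts in the values of the regulatory T cell loci was not tested.

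**Figure D5:**
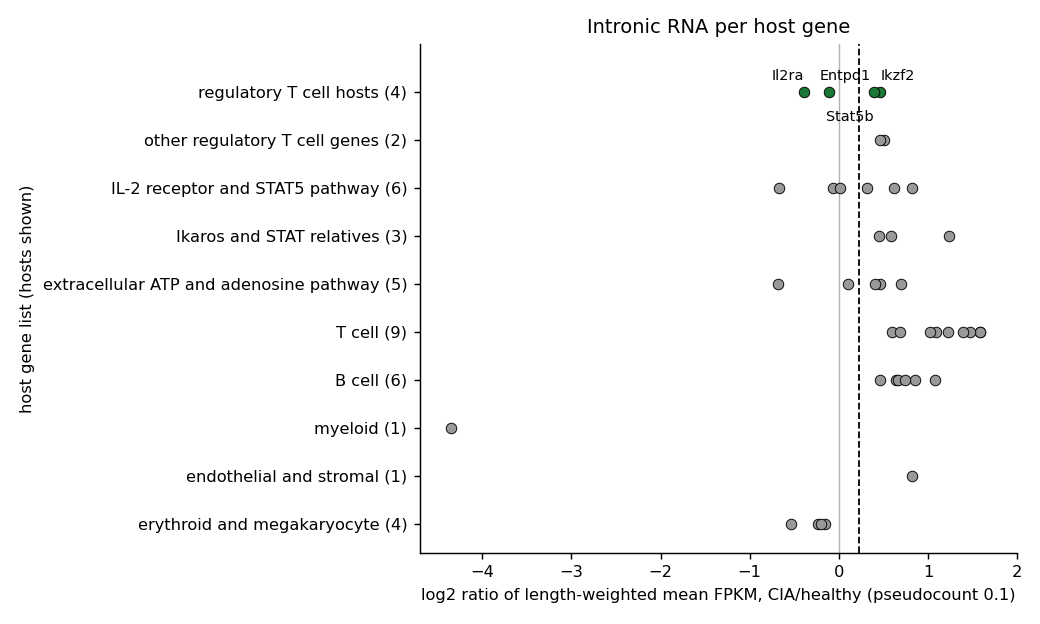
Log2 ratio (CIA over healthy) of the length-weighted mean intronic FPKM per host gene, with the 4 regulatory T cell hosts in green, the listed hosts in grey and the median of all 4339 hosts (0.22) dashed. Ikzf2 and Stat5b lie right of that line and Entpd1 and Il2ra left of it, and the 9 T cell hosts all lie right of Ikzf2.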

How the data were processed

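Spleen RNA of 1 CIA and 1 healthy library was extracted with TRIzol and depleted of ribosomal RNA, per the labels' protocols. Per the submitters' processing notes, transcripts were handled with StringTie, which assembles transcripts from aligned reads. Its version, the aligner, the build, the strand setting and the authors' test were not given in the sources used here. Deposited by the authors were FPKM values per transcript, per the file headers, with 0.0001 in place of 0, read here as 0. Per the file headers the authors also gave a ratio (fold), its log2 ratio, a p-value and a q-value, quoted here only as the authors' deposited table. The damaged CIA cells of 2 annotated transcripts, no members, were resolved from the deposited ratio. Columns were matched to groups by name, model for CIA and control for healthy.

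The members and gene lists were chosen with earlier results of these data known. Log2((CIA + 0.1)/(healthy + 0.1)), a filter of 0.5 FPKM in either library and a 2-fold size rule were used, which understates ratios of low transcripts. Host means weight FPKM by transcript length. All 6 annotated members had the coordinates of GENCODE M21 (GRCm38), which supplied exons and introns. The intron numbers follow the coding transcript with the longest span. FPKM gave no whole reads, so the depth is unknown and no counting interval can be given. All members are reported. Of the other hosts, the rule names the 2 highest and 2 lowest transcripts per list with at least 1 FPKM. They are given for the pathway lists. For the lists of other cell types the range over hosts is given in their place, with some transcripts named beside it. The host means of Jak1, Bcl2, Stat3, Stat4, Adora2a, Ada, Adk and the transcripts near Foxp3 and in Ikzf2 were named after their values were seen. With 1 library per group, how far scatter between libraries takes ratios past 2-fold was not tested. The software was pandas 2.3.3 with numpy 2.4.6 under Python 3.11.15, and figures were drawn with matplotlib 3.10.9. Alternatives were other pseudocounts, filters, centring, summaries per locus and splits of Ikzf2.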

Additional observations from a re-analysis of the deposited data

How the results depend on the processing

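No paired analysis was possible because the CIA and the healthy group had 1 library each. Over 72 alternative values, 67 stayed within a factor of 1.5 of the reported ratio or count. Some alternatives could not move far. Changing the filter left the intronic members the same, and centring shifted each log2 ratio by 0.25 or 0.30, less than 1.5-fold. With a size rule of 1.5-fold, 5 intronic members were higher in place of 0, and 3 were lower in place of 2. The share of all intronic transcripts past 1.5-fold was not computed, so these counts have no background beside them. The 2 members at least 2-fold lower became 1 with a pseudocount of 1 FPKM, and 0 with 1 value per locus or with members of at least 600 bases. The Entpd1 log2 ratio was -1.24 as a mean over its members, which gives MSTRG.19714.1 equal weight. The members' median was 0.31 over those of at least 600 bases, 0.14 with 1 value per locus, -0.03 centred on the annotated median and -0.04 without Ikzf2, over 7 transcripts, so its sign depends on both. The Ikzf2 locus ran from 0.17 to 0.48, Stat5b from 0.09 to 0.40, Il2ra from -0.68 to -0.25, Flicr from -0.49 to -0.08, Gm36995 from 0.25 to 0.70 and Gm16008 from 0.46 to 0.95, each keeping its sign. The difference between the sides of the Ikzf2 midpoint ran from 0.14 to 0.56. The length limit, leaving out Ikzf2 or MSTRG.6883.2 of Ikzf3, and adding the sense-intronic lncRNAs were chosen after seeing the data. The unknown depth limits short transcripts most.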
